A study of Canis lupus familiaris with 34 samples.

Results

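Chemokines are small secreted proteins that guide leukocytes through tissue by binding G protein-coupled receptors on the cell surface. CCL and CXCL ligands act through CCR and CXCR receptors, several ligands often share a receptor, and atypical receptors (ACKR) bind ligands without the usual G protein signal and remove or redistribute them. The eotaxins, of which CCL24 and CCL26 are measured here, bind CCR3, the main chemokine receptor of eosinophils, and eosinophils are a well-known companion of mast cells in canine mast cell tumours (MCTs).

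The genes described are all Transcript clusters (array probe sets summarised to 1 value per gene) whose symbol on the platform is CCL, CXCL, CCR, CXCR, XCL, XCR, CX3CL, CX3CR or ACKR followed by a number. They numbered 45 of the 32391 clusters in the table, of which 26 were ligands, 15 signalling receptors and 4 atypical receptors. Expression was measured on canine gene arrays in formalin-fixed, paraffin-embedded biopsies of 34 primary cutaneous MCTs, 1 per dog. The M group held 18 MCTs from dogs that died of metastatic disease, and the NM group held 16 MCTs from dogs that were treated by surgery without adjuvant therapy and were long-term survivors. Any adjuvant therapy was allowed in the M group, so treatment after surgery differs between the groups. All tumours arose spontaneously in pet dogs with 12 breed labels, 1 of which is cross-breed. The Labrador Retriever was the most frequent with 7 M and 3 NM tumours. Dogs with M MCTs were older (8.17 ± 2.81 years, SD, n = 18, range 2 to 15) than dogs with NM MCTs (5.5 ± 2.28 years, SD, n = 16, range 3 to 11). The M group held 9 bitches and 9 males against 5 and 11 in the NM group. The study reports that the paraffin specimens of NM MCTs were on average older than those of M MCTs. It also reports no correlation of specimen age with RNA integrity. The effect of specimen age on the values was not tested here.

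Every value below is a log2 expression value as deposited, and differences are M minus NM on that scale. The median of each array ran from 1.79 to 1.91. Pairs of arrays correlated at 0.56 to 0.944, and the arrays least like the others were NM 3, M 1 and NM 7. Of 12 mast cell markers in the table, 10 passed the level filter described below. KIT, the stem cell factor receptor, was above the median of the table in 33 of 34 tumours (2.94 ± 0.85 in M, 2.86 ± 1.06 in NM), the mast cell chymase CMA1 in 34, and carboxypeptidase CPA3 and the IgE receptor chain MS4A2 in 31 each. The IgE receptor chain FCER1A and the histamine-forming enzyme HDC were above it in 21 tumours each, and HPGDS and MRGPRX2, which were not tested, in 7 and 3. Each biopsy is a mixture of cells, so fewer cells of a type and less RNA per cell cannot be told apart in any result that follows. Of the 12 gene lists examined, the keratinocyte list held the most genes that differed between the groups. Of 23 tested keratinocyte genes, 13 were lower in M at an unadjusted p under 0.05 and 0 were higher, against 2.8% lower and 1.34% higher of all tested clusters. The level filter admits genes through either group, which can favour this direction. DSG3 of the 13, above the median of the table in 5 of 34 tumours, met it through NM alone. The keratinocyte score (the mean z-score of the list) was -0.306 ± 0.467 in M and 0.344 ± 0.828 in NM.

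A cluster was tested when its value exceeded the median of the whole table, 1.84, in 30% or more of the tumours of either group. Of the 45 chemokine and receptor genes, 31 met this, namely 21 ligands, 7 signalling receptors and 3 atypical receptors. The ligands CCL13, CCL17, CCL22, CCL26 and CXCL10, the receptors CCR4, CCR9, CX3CR1, CXCR1, CXCR2, CXCR5, CXCR6 and XCR1 and the atypical receptor ACKR4 did not. Among these 14 genes, CCL13, CCL22, CCL26, CXCR1 and CXCR5 were above the cut in 0 of 34 tumours, the others were above it in at most 6, and the highest single value was 2.39, for CX3CR1. Low signal on these arrays does not show that a gene was silent. A gene could enter the test through a single group, and CCL4, CCR3 and CCL7 met the filter in M only.

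Few chemokine genes separated M from NM MCTs. At an unadjusted p under 0.05, 2 of the 31 tested genes differed, CCL4 being higher and ACKR3 lower in M, against 4.14% of all 19246 tested clusters (1.34% higher and 2.8% lower in M). After Benjamini-Hochberg adjustment over all tested clusters in limma, 0 clusters of any kind passed (smallest adjusted p = 0.558), and the adjusted p of all 31 genes was 1. The mean was higher in M for 18 of the 31, compared with 43.9% of all tested clusters, and the median difference was 0.02 over the 31 genes and -0.02 over all tested clusters.

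**Figure D1:**
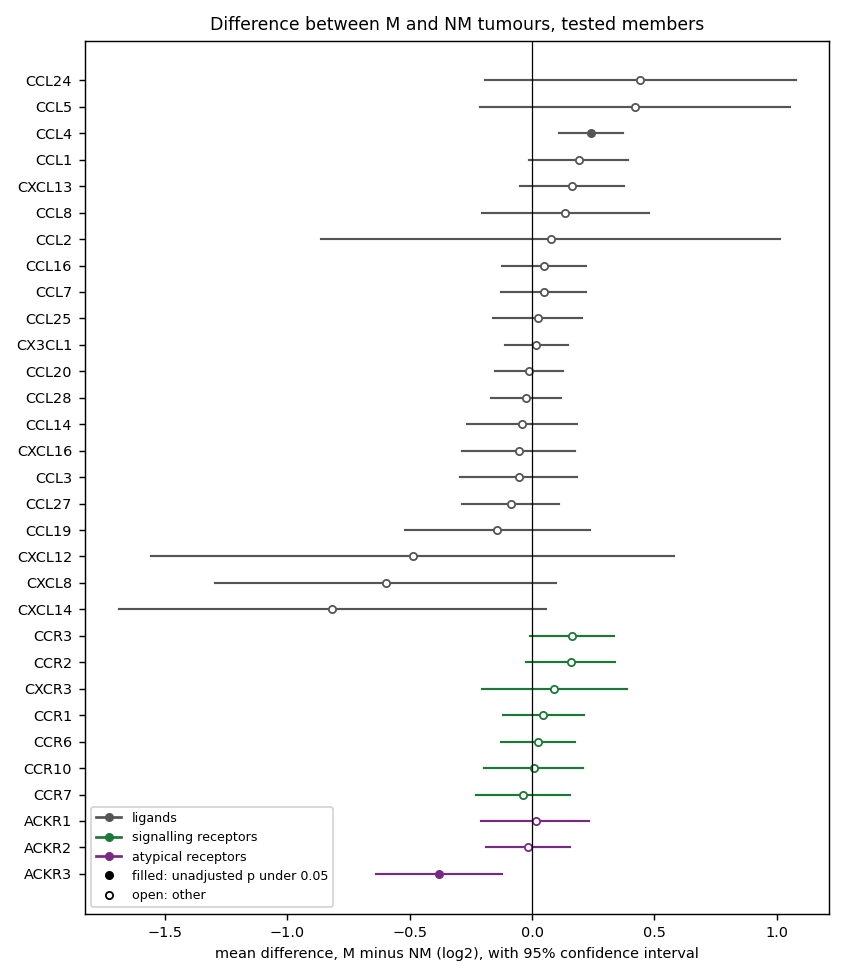
Difference in mean log2 value between M and NM MCTs (x axis) for each of the 31 tested genes (y axis), with its 95% confidence interval, coloured by role. The intervals of CCL4 (0.24) and ACKR3 (-0.38) leave out 0, and the widest belong to CXCL12, CCL2 and CXCL14.

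CCL4 is an inflammatory ligand that attracts monocytes and lymphocytes. Its lowest, median and highest values were 1.64, 1.89 and 2.20 in M and 1.35, 1.63 and 2.02 in NM, so the groups overlapped but 15 of 18 M and 3 of 16 NM tumours lay above the mean of all tumours. The mean difference was 0.24 (95% confidence interval 0.11 to 0.37, or 1.18-fold; limma p = 0.000606, adjusted p = 1; two-sided permutation p = 0.00043). All of these values are near the cut, with 12 of 18 M and 3 of 16 NM tumours above it, so the difference rests on low signal. CCL4 met the level filter only through M, the group where it is higher. Its p-values thus follow a selection that favours this direction. With no level filter its unadjusted p in limma was also under 0.05. That fit uses the same CCL4 values, so it cannot show what the selection did. CD3D, a subunit of the T cell receptor complex, was 0.36 higher in M (unadjusted p = 0.00346), but it was above the cut in only 8 tumours. It too met the level filter only through M. The rest of the 10 tested T and NK cell genes differed by 0.01 to 0.12 (unadjusted p from 0.205 to 0.879). With the T and NK cell score as a covariate the CCL4 difference was 0.21 (p = 0.00207). CCL3, the ligand closest to CCL4 in function, differed by -0.06 (p = 0.644), and its correlation with CCL4 was -0.01 over 34 tumours.

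ACKR3 binds CXCL12 and takes it up. Its values ran from 1.94 through a median of 2.38 to 2.98 in M and from 2.11 through 2.71 to 3.79 in NM. The groups overlapped, and 5 of 18 M and 11 of 16 NM tumours were above the mean of all tumours. ACKR3 was 0.38 lower in M (M minus NM -0.38, 95% confidence interval -0.64 to -0.12; limma p = 0.00497, adjusted p = 1; two-sided permutation p = 0.0045), which is 1.3-fold higher in NM. With the keratinocyte score as a covariate the difference was -0.28 (p = 0.0515), and with the fibroblast and matrix score it was -0.31 (p = 0.00381). Keratinocyte markers were lower in M as ACKR3 was, and their part in its difference was not tested beyond this covariate. The other atypical receptors showed little difference, with ACKR1, the Duffy receptor of venules and red cells, at 0.01 (p = 0.899) and ACKR2, a scavenger of CC chemokines in lymphatics, at -0.02 (p = 0.857).

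Of the eosinophil axis, CCL24 had a long upper tail. Its lowest, median and highest values were 1.97, 2.60 and 6.90 in M and 1.46, 2.32 and 3.58 in NM. The tumours M 2 (6.90), M 4 (4.26) and M 12 (3.76) were above every NM tumour, while the rest of the M group lay within the NM range. The mean difference was 0.44 (95% confidence interval -0.19 to 1.08, or 1.36-fold; p = 0.165, permutation p = 0.182), which did not exceed the spread between tumours, and without M 2 it was 0.21 (p = 0.318). With age as a covariate it was 0.03 (p = 0.927), and M 2 came from the oldest dog, aged 15 years.

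CCR3 values were 1.49, 1.95 and 2.53 in M and 1.35, 1.76 and 2.18 in NM (lowest, median and highest). With 11 M and 4 NM tumours above the cut, CCR3 met the level filter only through M, the group where it is higher. Its p-values thus follow a selection that favours this direction. The difference was 0.16 (95% confidence interval -0.01 to 0.34; p = 0.0608, permutation p = 0.0577), and it was 0.11 with age as a covariate (p = 0.246). CCL26 was below the cut in all 34 tumours, with means of 1.39 in M and 1.32 in NM, and did not enter the fit (difference 0.07, permutation p = 0.248). The eotaxin CCL11 was not analysed here.

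The axis was then set against eosinophil markers. Of 12 markers listed, 7 were in the table and only ALOX15, GATA1, CEBPE and ADGRE1 were tested, of which GATA1 is also a mast cell transcription factor. Eosinophil peroxidase EPX, a defining granule protein, was above the cut in 7 of 34 tumours (1.69 in M, 1.75 in NM), and the interleukin 5 receptor IL5RA in 2, so the score carries little of what defines an eosinophil. None of the 4 tested markers differed between M and NM at an unadjusted p under 0.05, and the score was 0.206 ± 0.606 in M and -0.232 ± 0.621 in NM. Over 34 tumours, the score correlated with CCL24 at r = 0.36 (permutation p = 0.0376, adjusted over 3 relations 0.072; rho = 0.29, p = 0.101, adjusted p = 0.258) and with CCR3 at r = 0.34 (permutation p = 0.048, adjusted p = 0.072; rho = 0.24, p = 0.172, adjusted p = 0.258). With CCL26 r was 0.16 (permutation p = 0.38; rho = 0.10, p = 0.569). None of the 3 passed adjustment, and without the 2 tumours farthest from the median of the gene they ran from -0.09 to 0.23. Within M they ran from 0.19 to 0.28 and within NM from -0.04 to 0.42. CCL24 and CCR3 themselves correlated at r = 0.25 (rho = 0.02).

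Among the other ligands and receptors, CCL1, a ligand of CCR8, differed by 0.19 (p = 0.0639). CCR2, the receptor of CCL2 on monocytes, differed by 0.16 (p = 0.0858), and CXCL13, which guides B cells into follicles, by 0.16 (p = 0.128). CXCL14, a ligand made by skin epithelium and stroma, had values of 1.67, 2.23 and 4.59 in M and 1.89, 2.77 and 7.80 in NM (difference -0.82, 95% confidence interval -1.69 to 0.06, p = 0.0664), and the difference ran from -0.94 (p = 0.0343, without M 8) to -0.52 (p = 0.144, without NM 9) when each tumour was left out, with an unadjusted p under 0.05 in 8 of 34 such fits. CXCL8, the main neutrophil attractant, reached 3.44 in M and 6.75 in NM (difference -0.60, p = 0.0905; -0.31 without NM 8, p = 0.189). Neither difference exceeded the spread over all 34 tumours, and in both genes the highest values belonged to a few NM tumours, NM 9 at 7.80 and NM 6 at 6.01 for CXCL14 and NM 8 at 6.75 and NM 9 at 4.62 for CXCL8. The remaining receptors tested, CXCR3, CCR1, CCR6, CCR7 and CCR10, differed by -0.04 to 0.09 (p from 0.535 to 0.948).

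**Figure D2:**
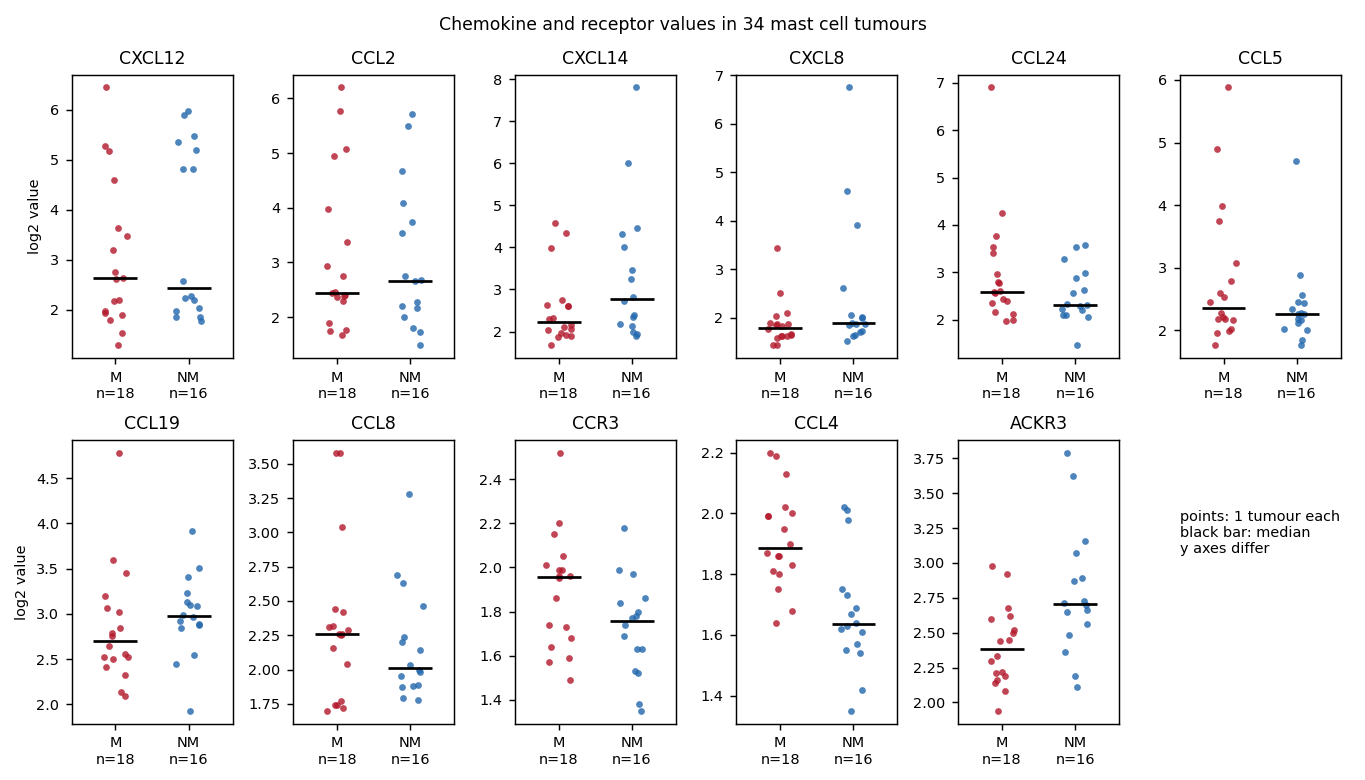
Log2 values of the 8 genes with the largest spread and of CCR3, CCL4 and ACKR3 in M (n = 18) and NM (n = 16) MCTs, 1 point per tumour, with the median as a bar; each panel has its own y axis. CCL24 reaches 6.90 in a single M tumour and CXCL8 reaches 6.75 in a single NM tumour, whereas CXCL12 and CCL2 spread widely in both groups.

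Several ligands varied widely among tumours of the same group. The 8 genes with the largest standard deviation over all tumours were CXCL12 (1.58), CCL2 (1.37), CXCL14 (1.34), CXCL8 (1.06), CCL24 (0.95), CCL5 (0.95), CCL19 (0.55) and CCL8 (0.50), all ligands. The other 23 tested genes had standard deviations of 0.17 to 0.43. CXCL12, the stromal ligand that retains leukocytes and stem cells, was more than 1 log2 unit above its own median in 5 M and 7 NM tumours. In NM it had a gap, with 7 tumours at or above 4.81 and 9 at or below 2.58, but in M 7 tumours lay inside that gap. Its lowest, median and highest values were 1.28, 2.63 and 6.45 in M and 1.77, 2.43 and 5.97 in NM (difference -0.49, 95% confidence interval -1.56 to 0.58, p = 0.361).

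CCL2, the main monocyte attractant, ran over a similar range in both groups, with 1.67, 2.45 and 6.20 in M and 1.48, 2.67 and 5.71 in NM, and 5 tumours of each group were more than 1 unit above the median (difference 0.08, 95% confidence interval -0.86 to 1.02, p = 0.868). CCL5, a T cell and eosinophil attractant, had values of 1.76, 2.36 and 5.88 in M and 1.77, 2.27 and 4.71 in NM, with 4 M tumours and 1 NM tumour more than 1 unit above the median (difference 0.42, p = 0.187; 0.24 without M 2, p = 0.36). The same tumours recurred at the top. M 2 was highest for CCL24, CCL5 and CCL19, M 8 for CXCL12, CCL2 and CCL8, and NM 9 for CXCL14 and ACKR3.

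Whether a ligand and its receptor varied together was examined over 14 pairs, those of a chosen list of ligands and their receptors in which both genes were tested. The list held no pair with ACKR1 or ACKR2 and left out some known pairs. Only CXCL12 with ACKR3 passed adjustment over the 14 pairs (r = 0.63, permutation p = 0.0001, adjusted p = 0.0014; rho = 0.52, p = 0.00207, adjusted p = 0.029; n = 34). The other 13 pairs had r from -0.18 to 0.32. For CXCL12 with ACKR3, r was 0.60 without the 2 tumours farthest from the CXCL12 median (adjusted permutation p = 0.00448, but 0.093 by rho), and it ran from 0.58 (without NM 9) to 0.67 (without M 6) when each tumour was left out in turn. Within NM it was 0.71 (adjusted permutation p = 0.016, but 0.104 by rho), where it spans the gap in CXCL12, and within M it was 0.53 (adjusted permutation p = 0.322). With the fibroblast and matrix score held constant r was 0.26 (adjusted permutation p = 0.378), so the call was lost.

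After the data had been examined, the 8 widely varying ligands and CCL4, CCR3 and ACKR3 were set against 9 marker list scores, which gave 99 relations. Of these, 19 passed adjustment by r and 16 by rho. CXCL12 and CXCL14 followed the fibroblast and matrix score (13 tested genes such as COL1A1, COL3A1 and DCN) most closely. For CXCL12 r was 0.79 (rho = 0.81, adjusted permutation p = 0.00033 for both; 0.77 within M, 0.82 within NM) and for CXCL14 r was 0.80 (rho = 0.77, adjusted permutation p = 0.00033 for both; 0.76 within M, 0.92 within NM). These raw permutation p-values, 1e-05, were the smallest that 100000 resamples can give. ACKR3 followed the same score at r = 0.64 (rho = 0.66, adjusted permutation p = 0.00214 and 0.00033; 0.66 within M, 0.68 within NM). Without the 2 farthest tumours the 3 values were 0.73, 0.71 and 0.54. ACKR3 was also called with the keratinocyte score by rho but not by r (r = 0.42, rho = 0.47, adjusted permutation p = 0.0612 and 0.0419). That r was 0.41 within M and 0.22 within NM. CXCL12 and CXCL14 also correlated with each other at r = 0.78 (adjusted permutation p = 0.00014 over 28 pairs of the 8 ligands), and with the fibroblast and matrix score held constant at 0.39 (adjusted permutation p = 0.0947). None of the 13 tested fibroblast and matrix genes differed between M and NM at an unadjusted p under 0.05, although all 13 had a lower mean in M (median difference -0.29, against -0.02 over all tested clusters).

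CCL2 followed the mast cell score most closely, at r = 0.75 (rho = 0.62, adjusted permutation p = 0.00033 and 0.00238; 0.72 within M, 0.80 within NM, 0.80 without the 2 farthest tumours). It also correlated with the fibroblast and matrix score at r = 0.61 and with the macrophage and dendritic cell score at r = 0.58 (adjusted permutation p = 0.00214 and 0.00384). The relation with mast cell markers was as large with the fibroblast and matrix score held constant (r = 0.73), whereas that with macrophage markers was then 0.36 (adjusted permutation p = 0.128). M 8, the tumour with the highest CCL2, lay away from the trend with mast cell markers.

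CCL24, an eotaxin, correlated with the macrophage and dendritic cell score at r = 0.60 (rho = 0.62, adjusted permutation p = 0.00339 and 0.00238; 0.49 without the 2 farthest tumours) and with the mast cell score at r = 0.48 (rho = 0.57, adjusted permutation p = 0.0447 and 0.0082). Its r with the eosinophil score was 0.36, and whether these values differ from each other was not tested. Its relation with the B and plasma cell score (r = 0.66, adjusted permutation p = 0.0165) rested on M 2, since rho was 0.15 and r was 0.28 without that tumour. The same held in part for CCL5 and that score, with r = 0.70, rho = 0.25 (adjusted permutation p = 0.00214 and 0.352) and r = 0.49 without M 2. CCL24 and CCL19, a ligand that draws dendritic cells and T cells through CCR7, varied together over tumours (r = 0.75, rho = 0.60, adjusted permutation p = 0.00014 and 0.00294 over 28 pairs; 0.52 without the 2 farthest tumours; 0.87 within M and 0.67 within NM). CCL24 with CCL5 gave r = 0.69, which was 0.24 without the 2 farthest tumours. CCL4 correlated with the eosinophil score at r = 0.49 (rho = 0.48, adjusted permutation p = 0.0249 and 0.0419), but the call was lost with the T and NK cell score held constant (r = 0.34, adjusted permutation p = 0.134), within M (r = 0.42, adjusted permutation p = 0.242) and within NM (r = 0.36, rho = 0.08, adjusted permutation p = 0.519 and 0.916). For CCR3 the only call by r was with the B and plasma cell score, not the eosinophil score. That r was 0.53, and it ran from 0.43 (without M 4) to 0.63 (without M 2) when each tumour was left out.

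**Figure D3:**
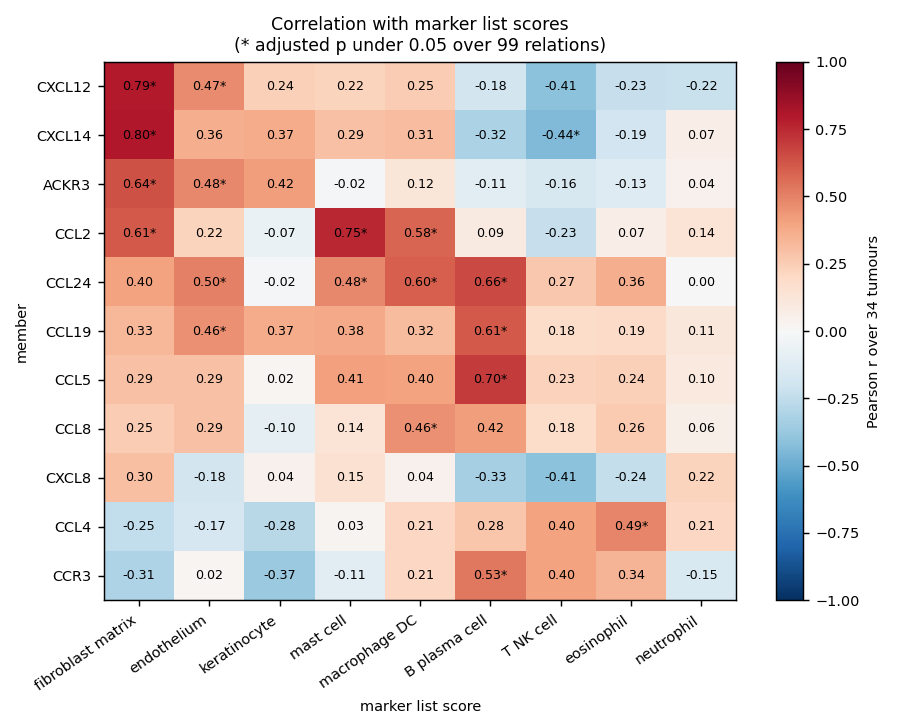
Pearson r over 34 tumours between each of 11 genes (rows) and 9 marker list scores (columns), with an asterisk where the adjusted permutation p over 99 relations was under 0.05. CXCL12, CXCL14 and ACKR3 have their highest value with the fibroblast and matrix score (0.79, 0.80 and 0.64), and CCL2 with the mast cell score (0.75).

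**Figure D4:**
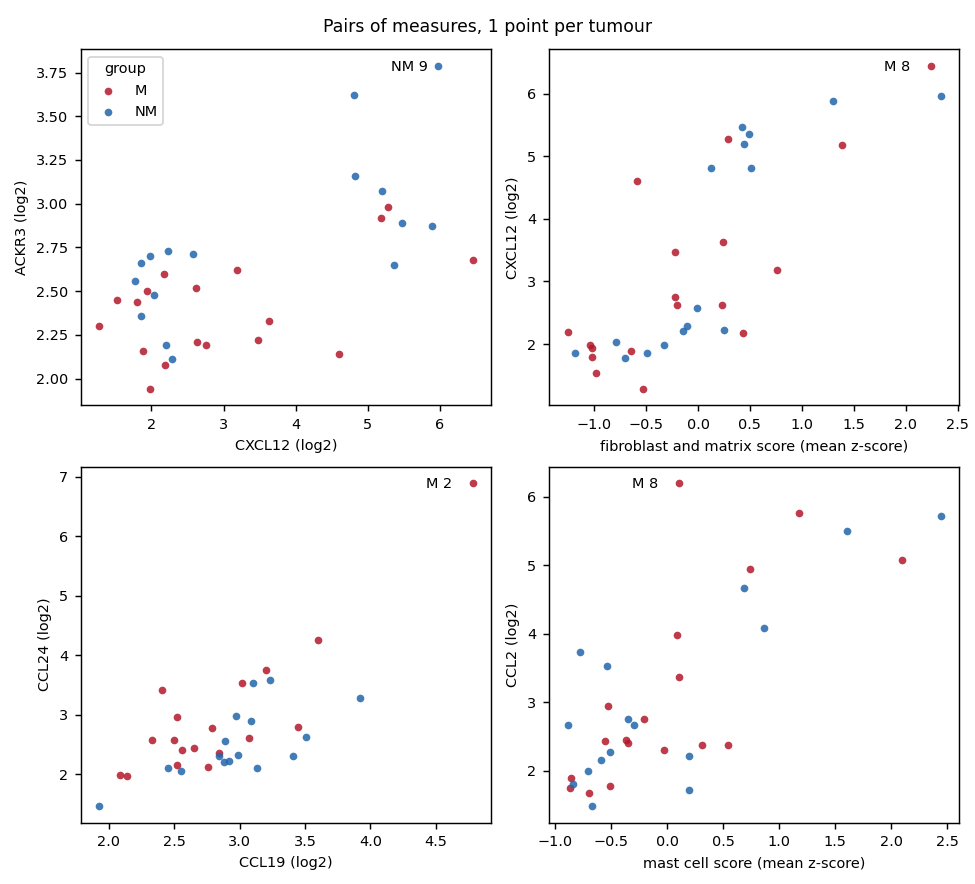
Values of 34 tumours, 1 point each, coloured by group: ACKR3 against CXCL12, CXCL12 against the fibroblast and matrix score, CCL24 against CCL19, and CCL2 against the mast cell score; genes are log2 values and scores are mean z-scores. M and NM points overlap in every panel, and M 2 stands apart at 6.90 for CCL24.

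The clusters whose values were most like those of each gene were taken by Pearson r over the 34 tumours, as a description without a test. For CCL24 they were CA4 (0.90), RNF4 (0.88), PSMB9 (0.87), GRAMD1A (0.83) and TGM2 (0.83), which were 0.44 to 0.75 without the 2 tumours farthest from the CCL24 median. CA4 encodes a carbonic anhydrase and PSMB9 a subunit of the immunoproteasome. For CCR3 the closest was TMEM71 (0.65), for CCL4 MIR632 (0.72) and for CCL26 CD40 (0.58). Of the genes added after seeing the data, CXCL12 was closest to DCN (0.92) and FBN1 (0.87), which encode the matrix proteins decorin and fibrillin and belong to the fibroblast and matrix list. CXCL14 was closest to AEBP1 (0.90) and COL14A1 (0.88), both matrix genes, and CCL5 had among its closest JCHAIN (0.86), the immunoglobulin joining chain. CXCL8 was closest to MAGED1 (0.81), BACE2 (0.81), GPNMB (0.80) and MITF (0.79), values that fell to between 0.39 and 0.54 without the 2 farthest tumours for its 5 closest genes.

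Breed was compared over the 4 breed labels with at least 4 tumours, cross-breed among them, 24 tumours in all, with the metastasis group in the model. At an unadjusted p under 0.05 in limma's F test, 4 of the 31 genes differed, against 7.38% of all tested clusters, and 0 passed adjustment. These were CCL24 (p = 0.0315), CCR3 (p = 0.0331), CCR1 (p = 0.0465) and CXCL8 (p = 0.0473). Mean CCL24 was 3.88 in cross-breeds, 2.74 in Labrador Retrievers, 2.44 in Boxers and 2.24 in Golden Retrievers, and mean CCR3 was 2.01, 1.83, 1.74 and 1.48 in the same order. Mean CXCL8 was 3.65 in Golden Retrievers and 1.68 to 2.11 under the other 3 labels, with the highest tumours, NM 8 and NM 9, both from Golden Retrievers. Without the cross-breed tumours, to which M 2 and M 4 belong, 0 of the 31 genes passed the unadjusted threshold.

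By age, with the metastasis group in the model, 3 of 31 genes had an unadjusted p under 0.05, against 4.75% of all tested clusters, and 0 passed adjustment. All 3 were higher in older dogs (3.44% of all tested clusters). CXCL13 was higher by 0.047 log2 units per year (p = 0.0208), and by 0.076 without the oldest and the youngest dog (p = 0.00384). Small p-values were common in that second fit. In it 2951 of the 19246 tested clusters had an unadjusted p under 0.05 in limma, against 915 with all dogs. CXCL13 was the only 1 of the 31 genes among them. CCL24 (0.155 per year, p = 0.0106) and CCL19 (0.081 per year, p = 0.0277) gave -0.002 and -0.004 without those 2 dogs.

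Other genes of the pathway were counted in the same way, against 1.34% higher and 2.8% lower in M of all tested clusters (4.14% in all). Of 52 listed genes that act downstream of chemokine receptors or with them, such as G protein subunits, kinases and arrestins, 34 were tested, and 0 differed at an unadjusted p under 0.05 in either direction (19 of 34 higher in M, median difference 0.02). The smallest p values belonged to RAC2, a leukocyte GTPase (0.62, p = 0.0769), and PIK3CG, the kinase that leukocyte chemokine receptors activate (0.20, p = 0.0807). Of the interferon gamma targets 6 were tested and of the type 2 cytokine genes 8, and 0 of each differed at that level. Among the leukocyte and vessel lists the counts were 0 of 10 for macrophages and dendritic cells, 0 of 10 for neutrophils, 0 of 11 for endothelium, 1 of 10 for T and NK cells (higher in M), 2 of 9 for B and plasma cells (higher in M) and 1 of 10 for mast cells, MITF, which was lower in M (-0.28, p = 0.0305). The T and NK cell gene, CD3D, and 1 of the 2 B and plasma cell genes, MS4A1, were each above the cut in 8 tumours. Both met the level filter only through M, a selection that favours this direction.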

How the data were processed

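Per the study's methods, arrays that were outliers were removed by the authors, and Robust Multichip Analysis (background correction, normalisation, summarisation) was run on those kept, so the deposited values are log2 signals with 1 value per gene and array. Affymetrix Expression Console 1.3 is named in the processing notes of the submitters. The sources used here give no batch of arrays. Normalisation across arrays makes each value relative to the other genes of its array, and the number of arrays limits the precision. Groups and breeds came from the labels, ages and sexes from the study's list of dogs. The members and gene lists were chosen with earlier results of these data known.

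Symbols came from the platform annotation (16878 clusters with 1 symbol, 289 with several, 15224 with none), and all 45 genes matched a RefSeq gene of assembly UU_Cfam_GSD by Entrez number. limma 3.58.1 in R 4.3.3 was fitted over all 19246 clusters above the level filter, with Benjamini-Hochberg adjustment over them. Single values and correlations used two-sided permutation tests with 100000 resamples (Python 3.11.15, scipy 1.17.1). A marker score is the mean z-score of a list's tested genes, and holding a score constant means a partial correlation. The code was tested on simulated data. Genes were named by rule: the eotaxins and CCR3, up to 10 members with the smallest p, the 8 with the largest standard deviation, members of called pairs, up to 4 each by breed and age, the 5 most alike clusters, and up to 4 of each list. The relations of the 8 widely varying genes, of CCL4, CCR3 and ACKR3 with marker lists, and the covariates fibroblast and matrix score and T and NK cell score, were added after the data were seen. Alternatives covered the level filter, variance model, array weights, repeated quantile normalisation, covariates, breed, the replicate number, the methods' t-test and each tumour left out. The quantitative PCR was not analysed here.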

Additional observations from a re-analysis of the deposited data

Results flagged for a closer look

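Each of the 4 genes called by breed was examined within each of the 4 breed labels with 4 to 10 tumours, which gave 16 combinations. In 1 of these a tumour lay far from the rest. CXCL8 in NM 12, a Labrador Retriever tumour, was 3.91, and its gap to the nearest of the 10 Labrador tumours was 0.614 of their whole range, above the critical value of 0.466. Such a mark arises by chance in about 1 combination in 20, and the combinations share tumours.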

How the results depend on the processing

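No chemokine gene passed adjustment under any alternative of the M and NM comparison. The number with an unadjusted p under 0.05, 2 as reported, was 1 with the filter at the 75th percentile and 1 with the keratinocyte score, 4 each with array weights, repeated quantile normalisation and breed as a block, and 2 to 6 with each tumour left out (6 without M 5, 5 without NM 13, 4 without M 8, NM 3 or NM 4). The methods' t-test called 790 clusters at an unadjusted p under 0.05, 2 of them chemokine genes, and 0 after Benjamini-Hochberg adjustment. The CCR3 difference was 0.18 (p = 0.0476) with quantile normalisation repeated, and 0.13 to 0.19 (p from 0.0253 to 0.112) with each tumour left out, with p under 0.05 in 8 of 34 cases (without M 5, 7, 8, 13 or 15 or NM 4, 11 or 15). The unadjusted p was also under 0.05 for CXCL14 in 8 of 34 cases (without M 5, 8 or 11 or NM 3, 4, 8, 13 or 16) and with array weights (p = 0.0327), for CCL1 in 7 (without M 2, 4, 5, 12 or 16 or NM 3 or 13) and with quantile normalisation repeated (p = 0.037), and for CCR2 in 2 (without M 5 or NM 13) and with array weights (p = 0.0434). CCL24 then ran from 0.21 (without M 2) to 0.51, CCL4 from 0.22 to 0.27 and ACKR3 from -0.43 to -0.31. Directions turned for CCL2 (-0.094 with array weights, -0.01 with the keratinocyte score, -0.053 without the 3 arrays least like the others, -0.10 to 0.25 with each tumour left out), for CCL19 (0.047 with the keratinocyte score, 0.055 with breed as a block), for CCL26 with the eosinophil score (r = -0.09 without the 2 farthest tumours, -0.04 within NM) and, without the oldest and the youngest dog, for the age slopes of CCL24 (-0.002) and CCL19 (-0.004). Called ligand and receptor pairs went from 1 to 0 with the fibroblast and matrix score held constant and within M, and by rho also within NM and without the 2 farthest tumours. Relations with marker lists called by r, 19 over all tumours, numbered 8 with that score held (7 of the 19 among them, 4 of the 19 being outside the 88 relations then tested), 11 without the 2 farthest tumours (7 of the 19), 11 within M (10) and 6 within NM (5). By rho, 16 over all tumours, they numbered 8, 9, 0 and 2, and 7 with array quality held. Pairs of ligands called by r, 10 over all tumours, numbered 4, 4, 4 and 1, all among the 10, and by rho, 6 over all tumours, 2, 2, 0 and 1, and 2 with array quality held. Genes differing by breed went from 4 to 0 without cross-breeds, and by age from 3 to 1 without the oldest and youngest dog and to 5 with no level filter. Over all tested clusters the calls rose from 1421 to 1689 without cross-breeds and from 915 to 2951 without the 2 dogs. By age they were 1432 of 32391 with no level filter. The cause of these shifts was not tested. The share of clusters under an unadjusted p of 0.05 that were lower in M was 67.6%, but 55.9% with quantile normalisation repeated, 48.9% with no filter and 79.1% with the higher filter. Samples with the same replicate number share only a number. The correlation of their deviations ran from -0.612 to 0.436 and was above 0.1 in 3 of 16 pairs. Many of the genes lie near the level cut, so their differences rest on low signal.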
